A study of Mus musculus with 9 samples.

Results

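Integrins and the proteins that assemble behind them at focal adhesions were followed as a set of 34 genes: 17 integrin subunits (12 alpha and 5 beta) and 17 intracellular partners. The rule for membership is a list of gene names, and each gene was found in the count table by the symbol that the authors gave its Ensembl gene identifier. All 34 members, of 55487 genes in the table, passed the filter on low counts and were among the 14851 genes tested. Itga10 and Itgb8 reached that filter only in libraries of the Reloading group described below, where they were highest. The rise counted for Itga10 is therefore not independent of the filter. The study compared gastrocnemius, a calf muscle, in 3 groups of mice. Control mice (4 libraries) moved freely in standard cages, Unloading mice (2 libraries) had their hindlimbs lifted off the ground for 10 days, and Reloading mice (3 libraries) went through the same unloading and then walked on all limbs again for 1 day. All libraries were labelled as wild-type C57BL/6 males; the study names the substrain as C57BL/6J, and its methods mention females for the suspension. Its methods also mention single reads, whereas the labels give paired-end libraries and the table was counted in read pairs. Mice shared a cage in pairs while suspended. Their age is not given in the sources used here. Nothing in the labels says that the numbered libraries of a group came from separate animals, so the p-values measure the spread between these libraries, which may in part be technical.

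Integrins are transmembrane receptors made of an alpha and a beta subunit that hold a cell to laminins, collagens, fibronectin and other matrix proteins. On the inside, talin and kindlin bind the beta tail and switch the receptor on, vinculin and tensins tie it to actin, and a complex of ILK, PINCH (Lims1, Lims2) and parvin, together with kinases and docking proteins such as FAK (Ptk2), Src, paxillin and p130Cas (Bcar1), relays signals from it. In muscle fibres these proteins sit at costameres and at the myotendinous junction, where the force of contraction passes to the matrix, and alpha7beta1 is the main laminin receptor of the adult fibre.

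The libraries held between 9252443 and 19612101 counted read pairs, so that 1 read pair was worth 0.0546 to 0.113 CPM (read pairs scaled to a library total of 1000000). Expression levels are CPM with library sizes corrected by TMM factors, which adjust for differences in RNA composition. Fold changes are log2 values from an edgeR quasi-likelihood fit over all tested genes and all 9 libraries, and a change was called at an adjusted p under 0.05. The members together took 0.169 to 0.180% of all counts in the Control and Unloading libraries and 0.234 to 0.248% in the Reloading libraries. The 12 muscle fibre markers summed to 187331 to 201876 CPM in Control, 195735 to 199063 CPM in Unloading and 136609 to 150476 CPM in Reloading, so the labelled tissue showed its markers in every library. Control 2 and Reloading 1 held skin transcripts: 8 keratinocyte markers summed to 249 and 122 CPM there, against 2.53 to 4.55 CPM in the other 7 libraries. Without these 2 libraries the same 20 members were called in Reloading against Unloading, 3 of 4 (Itgav lost) in Unloading against Control and 20 of 22 (Itgav and Ptk2 lost) in Reloading against Control.

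Per kilobase of exon, the highest member in Control muscle was Itgb1bp2 (melusin, a muscle-specific protein that binds the beta1 tail) at 66.8 ± 2.17 CPM per kb (SD, n = 4). The kindlin Fermt2 at 49.96 ± 1.90 CPM per kb and Itgb1, the beta partner of most alpha subunits in muscle, at 41.0 ± 2.34 CPM per kb came next, followed by Tns1 (tensin 1) at 26.6 ± 3.45 and Itgb5 at 22.6 ± 1.48 CPM per kb, and paxillin (Pxn) at 12.1 ± 0.83 CPM per kb. Itga7 at 10.9 ± 0.69, Tln1 at 10.8 ± 0.25 and Tln2 at 10.6 ± 0.48 CPM per kb (SD, n = 4) lay within each other's spread. Itga7 alone made up 50.8 ± 0.35% of the summed level per kb of the 12 listed alpha subunits in Control. Itgb1 made up 63.5 ± 2.15% of the sum of the 5 listed beta subunits. Itgb6, described at the end, is not a member and was not in that sum. At the bottom of the order were Itgb8 at 0.0412, Itga2 at 0.120 and Itga10 at 0.124 CPM per kb, with 65, 105 and 127 read pairs in all 9 libraries. The level of Ilk is not representative: 89.7% of its exon bases overlap Rrp8 and Taf10, read pairs falling on several genes were not counted, and only 132 read pairs remained for it. Itga10 and Vcl share 33.5% and 25.5% of their exon bases with other genes. Per kb of unshared exon they were at 0.187 and 7.07 CPM in Control, so their places in the order depend on the length used.

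**Figure D1:**
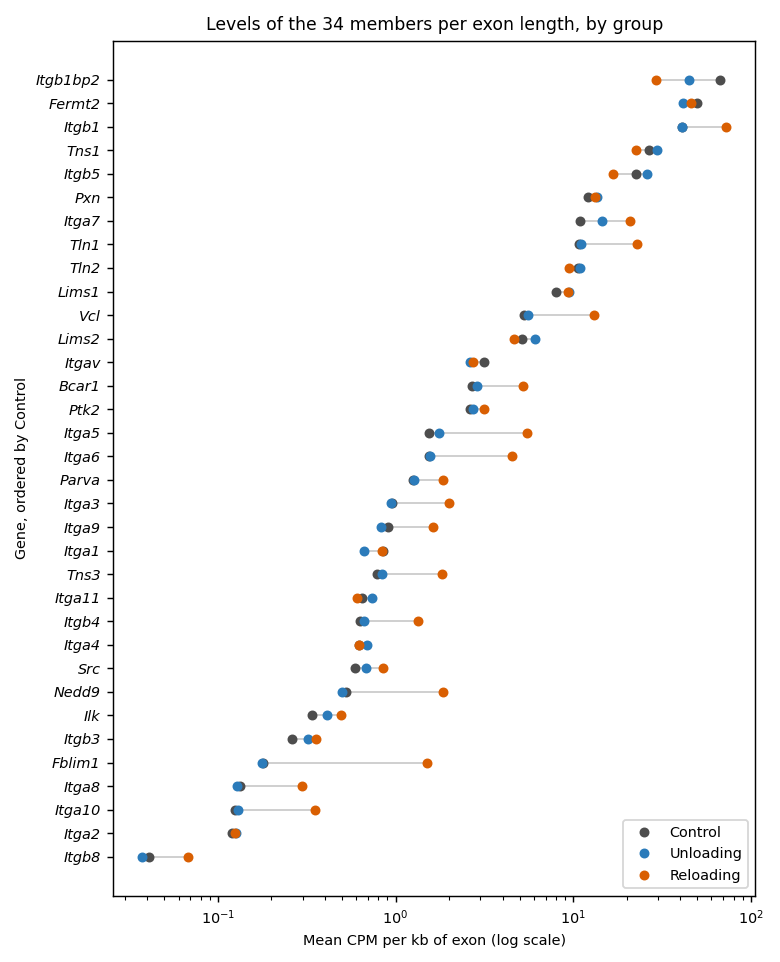
Mean level of each of the 34 members in Control (n = 4, dark grey), Unloading (n = 2, blue) and Reloading (n = 3, orange), in CPM per kilobase of exon on a log axis, with genes ordered by Control. Control levels ran from 0.0412 (Itgb8) to 66.8 (Itgb1bp2), and Itgb1 (41.0 to 72.6), Tln1 (10.8 to 22.9) and Vcl (5.26 to 13.0) lay further right in Reloading than in Control.

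Promoters of the members were searched for 3 motifs of transcription factors that are known to respond to stretch or stress. RefSeq windows on GRCm38.p6, from 250 bases before to 50 bases after a gene's start, were used for 24 members (the other 10 were Itga6, Itga7, Itgb3, Itgb4, Tln2, Pxn, Ptk2, Parva, Lims2 and Itgb1bp2), of which 12 rose in Reloading against Unloading. The CArG box, which serum response factor binds, was found for 2 of the 24 members (8.33%, against 1.81% of 27025 genes with a window), Vcl and Fermt2. An AP-1 site (TGANTCA) was in 3 (Fblim1, Itga3 and Itga9, 12.5% against 8.97% of genes) and an M-CAT site (CATTCC), read by TEAD factors, in 4 (Fblim1, Itga10, Itgb1 and Vcl, 16.7% against 16.6%). The Itga3 and Itga9 matches (chr11:95069168-95069197 and chr9:118711712-118711741) lay in windows inside the annotated genes, far from their outer starts (95076801 and 118606690). Both strands were searched, and in Fblim1 the 2 matches lay close together without overlap. The stretches below show a match in capitals and are written on the strand of the gene, for the gene that rose most (Fblim1), the main beta subunit (Itgb1) and both CArG matches, of which Vcl rose and Fermt2 was not called in Reloading against Unloading.
Vcl CArG box, chr14:20929161-20929190, plus strand: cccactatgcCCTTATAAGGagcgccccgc
Fermt2 CArG box, chr14:45530250-45530279, minus strand: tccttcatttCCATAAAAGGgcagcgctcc
Fblim1 AP-1 site, chr4:141606114-141606143, minus strand: cataccctctgTGAGTCAgacattccgtgc
Itgb1 M-CAT site on the opposite strand, chr8:128685635-128685664, plus strand: acgcggcgcggaGGAATGcgtttccggagg
The Vcl match lay at positions -227 to -218 from the start and the Fermt2 match at -204 to -195, while the Fblim1 match at -80 to -74 was followed in the same stretch by the M-CAT site at -71 to -66. A match is a description of letters in a window and not a binding site.

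After 1 day of reloading, 16 of the 34 members were higher than in Unloading and 4 were lower (47.1% and 11.8%), where 18.5% of all tested genes rose and 19% fell. In all, 20 members were called (58.8%, against 37.5% of all tested genes), and 11 members rose at least 2-fold, where 6.24% of genes did. Itga10, which passed the filter on low counts only through Reloading libraries, is in both counts. No called decrease reached 2-fold (the largest was Itgb5, -0.64), against 1.99% of genes. The median log2 fold change was 0.42 for the members and 0.026 for all genes. The members were chosen with earlier results of these data known, so these shares may not be independent of them. CPM values of the groups did not overlap for 24 of the 34 members, against 60% of all genes. Among the 17 integrin subunits 9 rose and 1 fell, and among the 17 partners 7 rose and 3 fell. With scaling by library totals alone, which moved the median of all genes from 0.026 to 0.27 and the share of calls that were higher from 49.3 to 82.8%, 22 members were called higher and 2 (Itgb5 and Itgb1bp2) lower. The calls added by that scaling were Itga1, Itgav, Pxn, Ptk2, Lims1 and Fermt2. Whole muscle was sequenced, and more cells of a type cannot be told apart from more RNA per cell.

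After 10 days of unloading few members were called: 1 rose (Itga7) and 3 fell (Itgb1bp2, Fermt2 and Itgav) against Control. That is 11.8% of the members, where 9.9% of all tested genes were called (4.4% higher and 5.5% lower). No member reached 2-fold, where 0.357% of genes rose and 0.828% fell that far. The median log2 fold change was 0.047 for the members and -0.0038 for all genes, and the groups did not overlap for 6 members, where 33% of genes did not. The other 30 members had log2 fold changes between -0.37 and 0.32. Reloading against Control, which shares the Reloading libraries with the comparison above and the Control libraries with this one, gave 18 higher and 4 lower members, 64.7% against 43.5% of all tested genes (22.1% higher, 21.3% lower). At least 2-fold changes were called higher for 11 members and lower for 1 (Itgb1bp2), against 5.57% and 2.27% of genes. The median was 0.56 against 0.013, and 22 members did not overlap, against 46.9% of genes. With scaling by library totals the counts were 21 higher, Itgb3, Pxn and Src added, and 1 lower, and 80.2% of all calls were higher in place of 50.9%.

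**Figure D2:**
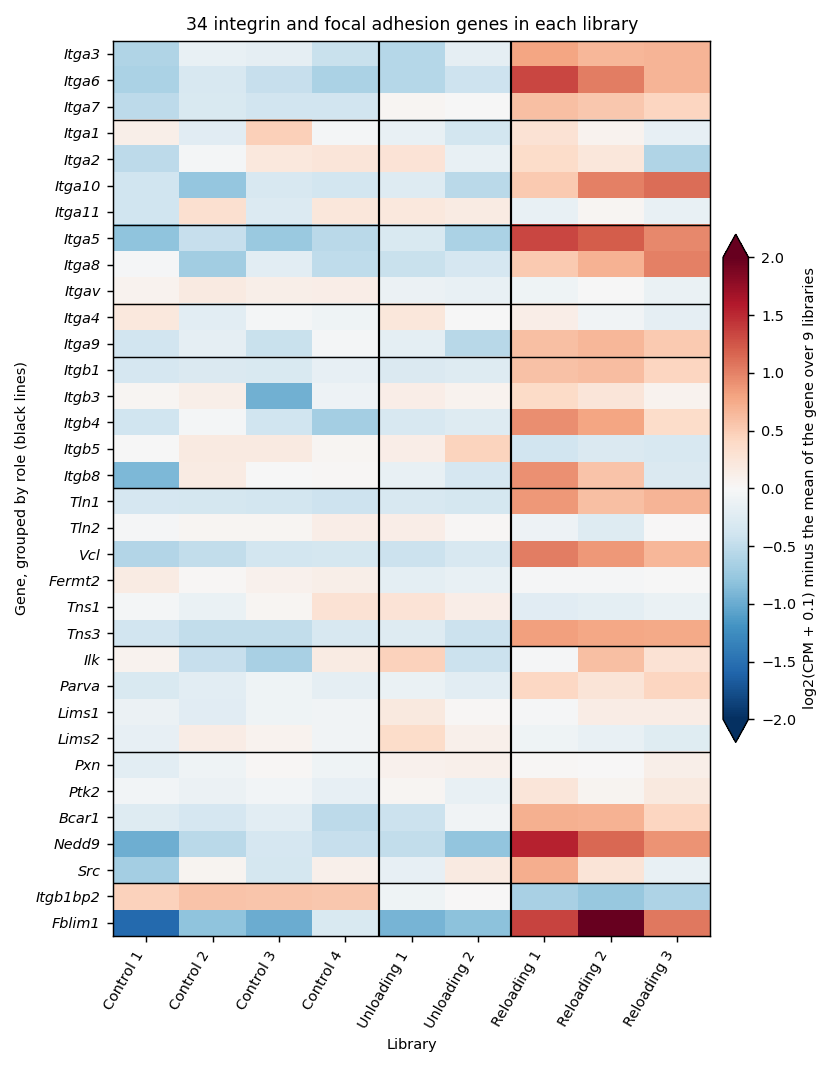
Each row is a member and each column a library; colour gives log2(CPM + 0.1) minus the gene's mean over the 9 libraries, from blue (low) to red (high), with colours limited to 2 in either direction, thick vertical lines between groups and horizontal lines between roles. The 3 Reloading columns were red for the 16 members called higher, among them Itga5, Itga6, Vcl, Nedd9 and Fblim1, while Itgb1bp2 went from red in Control to blue in Reloading.

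**Figure D3:**
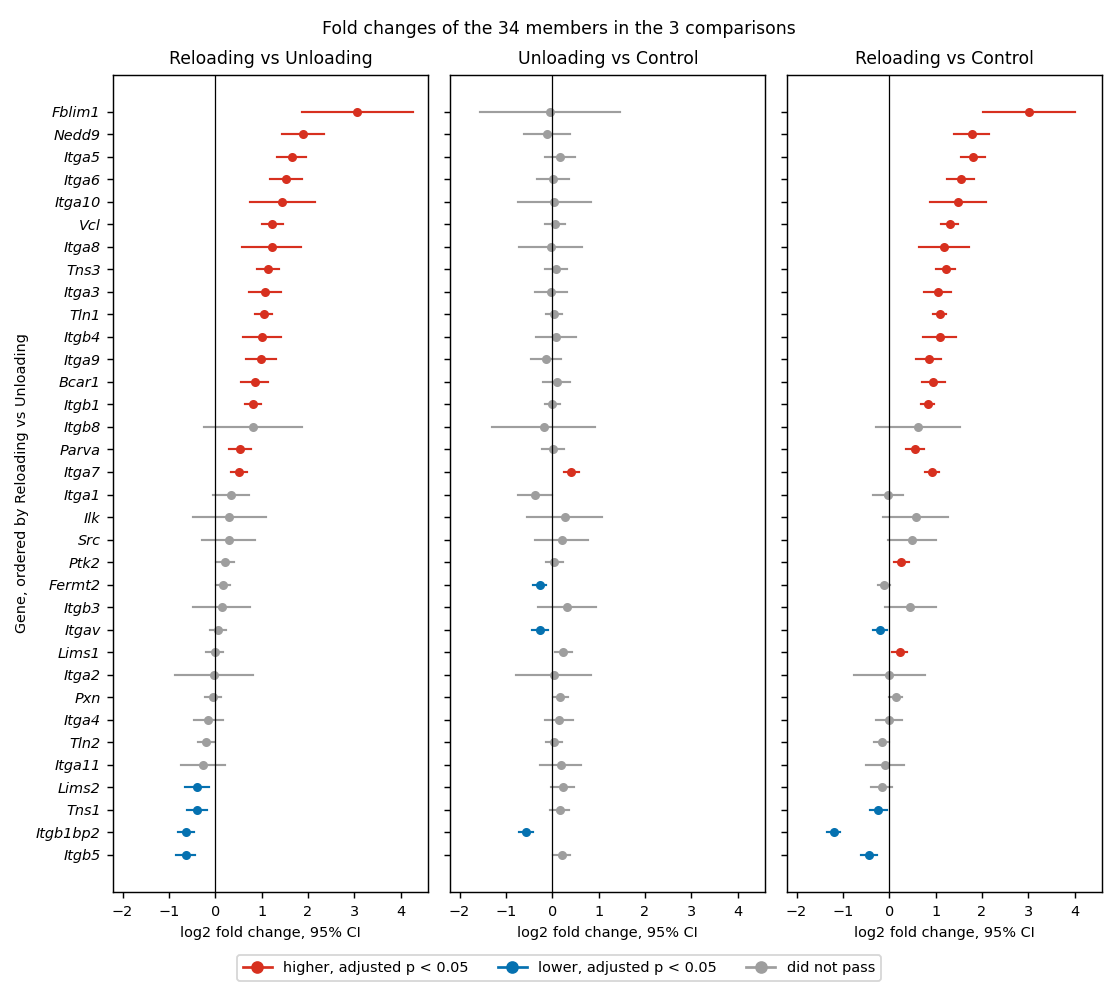
Log2 fold change of each member with its 95% confidence interval in the 3 comparisons, ordered by Reloading against Unloading (16 higher in red, 4 lower in blue). Unloading against Control had 1 higher and 3 lower members, and in Reloading against Control the lower values of Itgav and Tns1 changed sign when libraries were scaled by their totals.

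All 3 laminin-binding alpha subunits rose on reloading. Itga7 (chromosome 10, 128933818 to 128958282, GRCm38 as for all positions here) climbed at each step: its CPM was 81.1, 94.5, 89.4 and 89.3 in the Control libraries, 120 and 117 in Unloading and 177, 170 and 157 in Reloading. No 2 groups overlapped. The log2 fold change was 0.41 ± 0.08 (SE) for Unloading against Control (adjusted p = 0.0047, edgeR) and 0.51 ± 0.08 for Reloading against Unloading (adjusted p = 0.000227, edgeR). Without Unloading 1 the first of these was 0.40 and not called (adjusted p = 0.0841, edgeR). Itga6 (chromosome 2, 71745616 to 71858416), which pairs with beta1 or beta4, had CPM of 12.9, 16.1, 14.6 and 12.9 in Control, 13.5 and 15.1 in Unloading and 50.7, 40.7 and 32.3 in Reloading. The lowest Reloading library held 2.01 times the highest value outside Reloading, and the log2 fold change against Unloading was 1.52 ± 0.16 (adjusted p = 6.81e-06, edgeR). Itga3 rose by 1.07 ± 0.16 (adjusted p = 0.000114, edgeR), from 4.64 and 6.06 CPM in Unloading to 12.0, 11.1 and 11.1 in Reloading. Itga6 and Itga3 are also integrins of skin, and without the 2 libraries with skin transcripts their log2 fold changes against Unloading were 1.34 and 1.03. Unloading left Itga6 and Itga3 at log2 fold changes of 0.021 and -0.030 against Control, neither called.

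The fibronectin receptor subunit Itga5 (chromosome 15, 103344286 to 103366763) had the largest rise among integrins. Its CPM was 6.77, 8.62, 7.07 and 8.15 in Control, 9.66 and 7.65 in Unloading and 30.1, 27.7 and 23.3 in Reloading. Control and Unloading overlapped, and every Reloading library lay far above both. Against Unloading the log2 fold change was 1.65 ± 0.15 (SE, 3.14-fold, adjusted p = 1.32e-06, edgeR) and against Control 1.81 ± 0.12 (adjusted p = 4.12e-08, edgeR). Itga8, another receptor for RGD-containing matrix proteins, was far lower, at 0.746 to 1.24 CPM in Control, 0.898 and 0.984 in Unloading and 1.85, 2.10 and 2.65 in Reloading, which rested on 9 to 18 read pairs a library outside Reloading and 23 to 40 within it. It rose by 1.22 ± 0.30 (adjusted p = 0.00471, edgeR). Itgav, the RGD-binding subunit that pairs with several beta chains, went the other way at the first step: 32.6, 34.8, 33.4 and 33.9 CPM in Control, 28.5 and 27.7 in Unloading and 29.1, 30.6 and 28.2 in Reloading. All Control libraries lay above all others. The decrease with unloading was small (-0.26 ± 0.08, adjusted p = 0.0468, edgeR) and was no longer called when any single library was left out, and the value for Reloading against Control (-0.20 ± 0.07, adjusted p = 0.0282, edgeR) became 0.038 with scaling by library totals. Under that scaling Itgav was called higher against Unloading (0.31, adjusted p = 0.00859, edgeR), where the TMM value was 0.060 (adjusted p = 0.595). As a share of the summed alpha subunits per kb, Itga5 went from 7.20 ± 0.53% in Control and 7.07 ± 0.97% in Unloading to 13.7 ± 0.66% in Reloading, and Itgav from 14.6 ± 0.46% and 10.6 ± 0.06% to 6.85 ± 0.47% (SD, n = 4, 2 and 3).

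Of the 4 collagen-binding alpha subunits, 1 was called. Itga10, best known from cartilage, had CPM of 0.677, 0.497, 0.715 and 0.686 in Control, 0.749 and 0.601 in Unloading and 1.37, 1.95 and 2.12 in Reloading, from 6 to 11 read pairs a library outside Reloading and 17 to 32 within it. The Reloading libraries did not overlap the others, and the log2 fold change against Unloading was 1.44 ± 0.33 (SE, adjusted p = 0.00305, edgeR). Itga10 passed the filter on low counts only through these Reloading libraries. The exons of Itga10 overlap those of the predicted gene Gm42957 over 33.5% of their length, and that gene itself had a mean of at most 0.0221 CPM in any group. Read pairs on the shared bases were counted for neither gene, so this low value cannot tell whether the overlap matters. Itga1, Itga2 and Itga11 were not called in any comparison, except that scaling by library totals called Itga1 higher against Unloading (0.59, adjusted p = 0.0212, edgeR). Their values against Unloading were 0.34 (95% CI -0.048 to 0.73), -0.024 (-0.86 to 0.81) and -0.27 (-0.74 to 0.20). Each of these intervals still holds a change as large as that of Itga7 in at least 1 direction. Itga9, a receptor for tenascin and osteopontin, had 6.07 to 8.06 CPM in Control, 7.19 and 5.57 in Unloading and 12.7, 13.1 and 11.9 in Reloading, a rise of 0.99 ± 0.15 (adjusted p = 0.000154, edgeR). Its relative Itga4 was at -0.15 (-0.46 to 0.17) and overlapped in all groups, between 7.63 and 10.4 CPM.

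The beta subunits split. Itgb1 (chromosome 8, 128685654 to 128733200) held 159, 165, 163 and 181 CPM in Control, 166 and 169 in Unloading and 304, 312 and 273 in Reloading. Control and Unloading lay within the same range, and the Reloading libraries were all above it, by a log2 fold change of 0.82 ± 0.08 against Unloading (SE, adjusted p = 3.88e-06, edgeR). Itgb4, the partner of alpha6 in hemidesmosomes and in Schwann cells, went from 4.57 and 4.75 CPM in Unloading to 10.96, 9.91 and 7.42 in Reloading and rose by 1.01 ± 0.19 (adjusted p = 0.00093, edgeR), or by 0.89 without the 2 libraries with skin transcripts. Itgb5, which pairs with alphav, fell: it had 74.5, 84.8, 84.7 and 77.1 CPM in Control, 82.4 and 102.3 in Unloading and 57.6, 61.3 and 59.7 in Reloading. Every Reloading library lay below every other library. The log2 fold change was -0.64 ± 0.09 against Unloading (adjusted p = 0.000117, edgeR) and -0.43 ± 0.08 against Control (adjusted p = 0.000568, edgeR), and with scaling by library totals the second of these was -0.19 and not called. Itgb3 and Itgb8 were not called, at 0.14 (95% CI -0.48 to 0.75) and 0.82 (-0.24 to 1.88) against Unloading. The ratio of Itgb1 to Itgb5 within a library, which no scaling changes, per kb of exon reached 4.33 ± 0.31 in Reloading, from 1.82 ± 0.17 in Control and 1.60 ± 0.22 in Unloading (SD, n = 3, 4 and 2).

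The 2 talins, which couple the beta tail to actin, differed. Tln1 (chromosome 4, 43531519 to 43562691), the form found in most cell types, was at 108, 107, 106 and 102.4 CPM in Control, 110 and 108 in Unloading and 248, 208 and 218 in Reloading. Tln2 (chromosome 9, 67217087 to 67559703), the form prominent in striated muscle, was at 186, 194, 193 and 207 CPM in Control, 207 and 192 in Unloading and 175, 157 and 189 in Reloading. Tln1 was far higher in each Reloading library than anywhere else, whereas Tln2 was below both Unloading libraries there and overlapped Control. The log2 fold changes against Unloading were 1.05 ± 0.08 for Tln1 (SE, adjusted p = 4.42e-07, edgeR) and -0.20 ± 0.09 for Tln2 (adjusted p = 0.0776, edgeR). Tln2 against Control was at -0.17 ± 0.07 (adjusted p = 0.0774, edgeR). With the numbers of the sample descriptions as a block in the edgeR fit it was at -0.17 with an adjusted p = 0.0426. Whether these numbers pair the libraries is not known. Both Tln2 values turned positive (0.046 and 0.074) with scaling by library totals, and without Reloading 3 both were called lower (-0.27 and -0.23, adjusted p = 0.0322 and 0.0296, edgeR). The ratio of Tln1 to Tln2 per kb, taken within each library, was 2.43 ± 0.25 in Reloading and 1.02 ± 0.07 in Control and 1.02 ± 0.04 in Unloading (SD, n = 3, 4 and 2), with 2.16 as the lowest Reloading value and 1.09 as the highest value outside it.

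**Figure D4:**
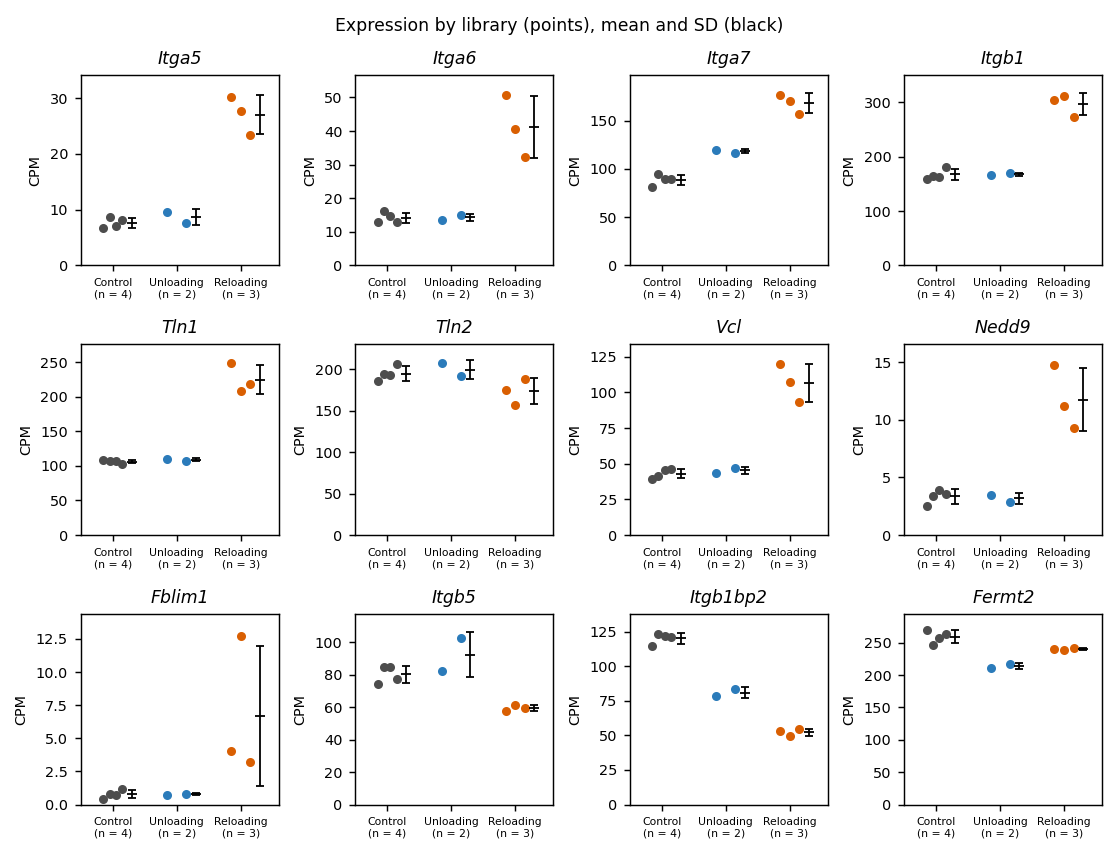
CPM of 12 members in each library (points) with the group mean and SD (black), for Control (n = 4), Unloading (n = 2) and Reloading (n = 3), each axis starting at 0. Itga5, Itga6, Itgb1, Tln1, Vcl, Nedd9 and Fblim1 were higher in all 3 Reloading libraries than in any other library, Itga7 rose and Itgb1bp2 fell at each step, and Fblim1 had 1 Reloading library at 12.7 CPM against 4.03 and 3.25 in the others.

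Vinculin (Vcl, chromosome 14, 20929398 to 21033676), which binds talin under tension and ties it to actin, had 39.2, 41.6, 45.4 and 46.2 CPM in Control, 43.5 and 47.1 in Unloading and 120, 107 and 93.4 in Reloading. The Reloading libraries all lay at least 1.98 times above the highest other library. The log2 fold change was 1.23 ± 0.11 against Unloading (SE, adjusted p = 9.14e-07, edgeR). Exons of Vcl overlap Ap3m1 over 25.5% of their bases, and Ap3m1 itself was at -0.18 ± 0.12 (adjusted p = 0.254, edgeR). Read pairs on the shared bases were counted for neither gene, so the Ap3m1 value does not cover them. Tensin 3 (Tns3) rose as well, from 9.59, 8.87, 8.86 and 9.95 CPM in Control and 10.5 and 9.29 in Unloading to 22.2, 21.4 and 21.2 in Reloading, a log2 fold change of 1.13 ± 0.11 against Unloading (adjusted p = 3.29e-06, edgeR). Its relative Tns1 had 413, 385, 438 and 517 CPM in Control, 513 and 466 in Unloading and 361, 372 and 386 in Reloading. Tns1 in Reloading lay below both Unloading libraries and overlapped 1 Control library. It was called lower against Unloading (-0.39 ± 0.10, adjusted p = 0.00749, edgeR) and against Control (-0.23 ± 0.09, adjusted p = 0.0401, edgeR), but with scaling by library totals the first was -0.14 and not called (adjusted p = 0.245, edgeR) and the second 0.0072. Without Unloading 1 the first was -0.32 and not called (adjusted p = 0.0763, edgeR).

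The kindlin Fermt2 (chromosome 14, 45458795 to 45530118), the most abundant of the activators per kb, was at 270, 247, 258 and 263 CPM in Control, 211 and 218 in Unloading and 239, 238 and 242 in Reloading. Unloading was the lowest group and Reloading lay between the others, without overlap. Only the decrease with unloading was called (-0.27 ± 0.07, adjusted p = 0.0191, edgeR), and the values of 0.16 against Unloading (adjusted p = 0.0807) and -0.11 against Control (adjusted p = 0.139) did not pass. The decrease was not called without Unloading 1 (-0.25, adjusted p = 0.187, edgeR) or without a filter on low counts (-0.24, adjusted p = 0.0705, edgeR), and scaling by library totals called Fermt2 higher in Reloading than in Unloading (0.41, adjusted p = 0.000297, edgeR).

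Of the 4 members in the complex of ILK, PINCH and parvin, 1 rose and 1 fell in Reloading against Unloading. Parva (alpha-parvin) rose from 13.2 and 12.5 CPM in Unloading to 19.3, 17.3 and 19.5 in Reloading, by 0.54 ± 0.11 (SE, adjusted p = 0.00138, edgeR). Lims2 (PINCH2) fell by 0.39 on the log2 scale (adjusted p = 0.0206, edgeR), with 14.1, 17.5, 16.5 and 15.01 CPM in Control, 20.3 and 16.8 in Unloading and 14.8, 14.2 and 13.3 in Reloading. Its Reloading libraries lay below both Unloading libraries but overlapped Control. Its call was lost without Unloading 1 (-0.25, adjusted p = 0.217, edgeR) or Reloading 3 (-0.35, adjusted p = 0.0646, edgeR) and with scaling by library totals (-0.14). Lims1 (PINCH1) was at -0.016 against Unloading and was called higher against Control (0.22 ± 0.07, adjusted p = 0.0252, edgeR), a call lost without Control 2, Reloading 2 or Reloading 3 (0.19, 0.19 and 0.20) and in DESeq2 (0.21, adjusted p = 0.069). In Unloading against Control it was at 0.24 (adjusted p = 0.0851, edgeR), and scaling by library totals called it higher in Reloading than in Unloading (0.23, adjusted p = 0.0475, edgeR). For Ilk the CPM was 1.13, 0.746, 0.643 and 1.201 in Control, 1.497 and 0.765 in Unloading and 1.05, 1.66 and 1.33 in Reloading, from 9 to 23 read pairs a library, and the groups overlapped. No comparison called Ilk (log2 fold change 0.30, 95% CI -0.48 to 1.09, against Unloading), and with most of its exon bases shared with other genes little can be read from it.

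Among kinases and docking proteins, both members of the p130Cas family were called higher against Unloading, and neither kinase was with TMM scaling. Nedd9 (chromosome 13, 41309581 to 41487362), a docking protein of this family, had 2.48, 3.40, 3.93 and 3.60 CPM in Control, 3.52 and 2.84 in Unloading and 14.7, 11.2 and 9.34 in Reloading. The lowest Reloading library lay 2.38 times above the highest other library. Against Unloading the log2 fold change was 1.89 ± 0.22 (SE, 3.71-fold, adjusted p = 1.16e-05, edgeR). Bcar1, p130Cas itself, rose by 0.85 ± 0.14 (adjusted p = 0.000207, edgeR), from 11.4 and 14.7 CPM in Unloading to 25.3, 25.1 and 20.9 in Reloading. FAK (Ptk2) was at 0.21 (95% CI 0.020 to 0.41, adjusted p = 0.0775, edgeR) against Unloading and was called against Control (0.26 ± 0.08, adjusted p = 0.0133, edgeR), a call lost without Reloading 1 or Reloading 3 (0.22 and 0.24). With scaling by library totals it was also called against Unloading (0.46, adjusted p = 0.00126, edgeR). Src was at 0.29 (-0.29 to 0.86) and paxillin (Pxn) at -0.039 (-0.21 to 0.13) against Unloading. Paxillin lay between 97.0 and 122 CPM in all libraries, and neither gene passed the test in any comparison. With scaling by library totals Pxn was called higher against Unloading and Control (0.21 and 0.38, adjusted p = 0.0435 and 0.000245, edgeR) and Src against Control (0.73, adjusted p = 0.0186, edgeR). Without Reloading 3, Src was also called against Control (0.69, adjusted p = 0.035, edgeR).

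Fblim1 (migfilin, chromosome 4, 141576062 to 141606096), which links filamin to kindlin-containing adhesions, had the largest fold change of all members. Its CPM was 0.451, 0.83, 0.715 and 1.201 in Control, 0.749 and 0.820 in Unloading and 4.03, 12.7 and 3.25 in Reloading, from 4 to 15 read pairs a library outside Reloading and 49 to 176 within it. The groups did not overlap, but Reloading 2 stood at more than 3 times the others. The log2 fold change was 3.06 ± 0.56 against Unloading (SE, 8.37-fold, adjusted p = 0.00063, edgeR), and without Reloading 2 it was 2.19 and still called. Melusin (Itgb1bp2, chromosome X, 101449088 to 101453541) fell at both steps. It had 115, 123, 122 and 121 CPM in Control, 78.4 and 83.6 in Unloading and 53.2, 49.2 and 54.4 in Reloading. No 2 groups overlapped. Against Control it fell by 0.57 on the log2 scale with unloading (adjusted p = 0.000494, edgeR), fell by 0.63 from Unloading to Reloading (adjusted p = 1.94e-05, edgeR) and was 2.30-fold lower in Reloading than in Control (adjusted p = 4.49e-09, edgeR). All 18 alternative settings kept these 3 calls, and with scaling by library totals the value from Unloading to Reloading was -0.38. The ratio of Itgb1bp2 to Itgb1 per kb within a library was 1.63 ± 0.09 in Control, 1.10 ± 0.03 in Unloading and 0.402 ± 0.046 in Reloading (n = 4, 2 and 3, SD).

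**Figure D5:**
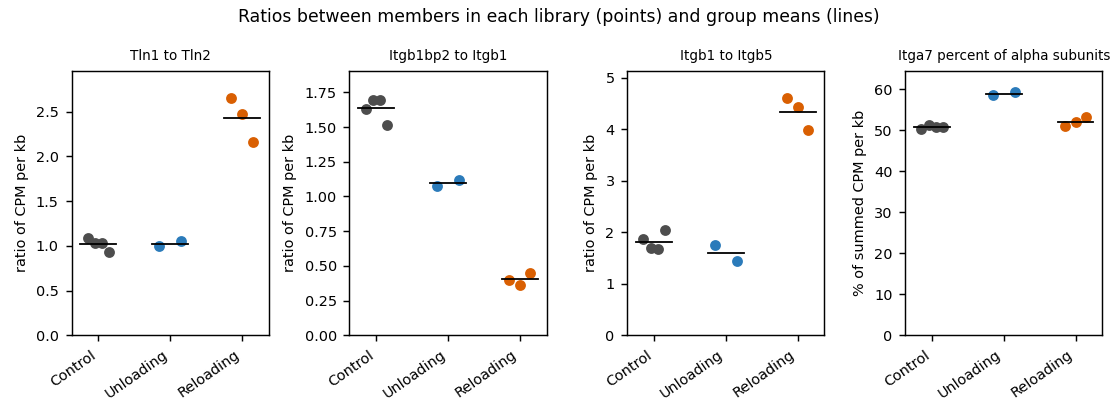
Ratios of CPM per kb between pairs of members, and Itga7 as a percentage of the 12 alpha subunits summed, in each library (points) with group means (lines) for Control (n = 4), Unloading (n = 2) and Reloading (n = 3). Tln1 to Tln2 was near 1.02 before and 2.43 in Reloading, Itgb1bp2 to Itgb1 stepped from 1.63 to 1.10 to 0.402, Itgb1 to Itgb5 reached 4.33, and Itga7 rose from 50.8 to 58.9% with unloading and was at 52.0% in Reloading.

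The summed level of the 12 alpha subunits was 21.5 ± 1.21 CPM per kb in Control (n = 4), 24.8 ± 0.65 in Unloading (n = 2) and 40.0 ± 3.25 in Reloading (n = 3), and that of the 5 beta subunits 64.5 ± 2.52, 68.1 ± 4.62 and 91.2 ± 5.30 CPM per kb (mean ± SD). Reloading libraries were the highest for both sums. Itgb1 made up 79.6 ± 0.90% of the beta sum in Reloading, against 60.4 ± 3.14% in Unloading. Itgb6, which is not a member, is not in that sum.

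Many genes of integrin ligands were higher in Reloading as well. Of 38 genes listed for integrin ligands 35 were tested, and 24 rose and 1 fell in Reloading against Unloading, where 18.5% and 19% of all tested genes did, with a median log2 fold change of 0.86 against 0.026 for all genes. The list was written with earlier results of these data known, so its share of calls may not be independent of them. Among those that rose were Thbs1 (thrombospondin 1, 2.33 ± 0.22, from 5.18 to 26.2 CPM) and Tnc (tenascin C, a ligand of alpha9, 2.13 ± 0.33). Adam9, a disintegrin and metalloprotease, was the 1 that fell, by 0.30 (adjusted p = 0.00456, edgeR). Unloading against Control called 2 ligands higher (Ccn1, 0.95, and Lama2, 0.30) and 3 lower (the collagens Col1a1, -1.07, and Col3a1, -0.71, and the laminin chain Lamb3, -0.87), where 9.9% of all genes were called. None of these 5 ligand calls was left without Unloading 1, and 2 ligands were called without Unloading 2 or without Reloading 2, and 3 without Control 2 or without Control 4. Reloading against Control called 26 higher and 1 lower, against 22.1% and 21.3% of all genes.

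Of 65 other focal adhesion genes 60 were tested, and 33 rose and 7 fell in Reloading against Unloading, beside the same 18.5% and 19% of all genes, with a median of 0.40. This list, too, was written with earlier results of these data known. Flnc (filamin C of striated muscle, 3.68), Enah (an actin polymerisation factor of the Ena/VASP family, 2.89) and Pdlim1 (2.17) rose most. Sorbs2 (-0.65), Nexn (nexilin, -0.54) and Rock1 (-0.47) fell most. Unloading against Control called 2 higher (Tns2, 0.38, and Limd1, 0.27) and 6 lower, from Pak1 (-0.66) and Pdlim1 (-0.65) to Vasp (-0.47), Git1 (-0.41), Palld (-0.31) and Pdlim7 (-0.31), beside 9.9% of all genes. Without Unloading 1 the number called was 1, and without Unloading 2 it was 4. Reloading against Control called 32 higher and 6 lower, against 22.1% and 21.3% of all genes.

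Markers of several other cell types of muscle, but not of all, were higher in Reloading than in Unloading, where 18.5% of all tested genes rose and 19% fell. Their part in the results was not tested. Of 8 endothelium markers 7 rose in Reloading against Unloading, and their summed level was 162 to 202 CPM in Control, 174 to 178 in Unloading and 286 to 364 in Reloading. Of 10 macrophage markers 8 rose (83.2 to 101.8, 86.8 to 87.9 and 167 to 190 CPM). A large part of that gain was 1 gene, Cd68, at 3.59 and 2.51 CPM in Unloading and 42.9, 50.4 and 44.4 in Reloading. Without the Reloading libraries, Fcgr1 of this list would not have passed the filter on low counts. Of 6 Schwann cell markers 4 rose (19.5 to 38.5, 26.4 to 33.2 and 65.6 to 92.0 CPM). Smooth muscle and pericyte markers gave 7 higher and 1 lower of 8 (414 to 436, 447 to 478 and 483 to 518 CPM). Most of this sum was Rgs5, the 1 that fell, at 340 and 305 CPM in Unloading and 260, 259 and 272 in Reloading. Tagln and Cnn1, both among the 7 that rose, passed the filter on low counts only through Reloading libraries. Their rises are therefore not independent of the filter. The 7 fibroblast markers gave 2 higher and 2 lower (325 to 392, 458 to 484 and 374 to 403 CPM). The 5 satellite cell markers summed to 24.97 to 31.2, 31.8 to 40.5 and 28.0 to 30.3 CPM. The 4 of them that were tested had negative log2 fold changes against Unloading, and none was called. Of the 12 muscle fibre markers 8 fell. Neutrophil markers, 2 of 6 tested and none called, summed to at most 5.75 CPM in any library.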

How the data were processed

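RNA of gastrocnemius muscle was sequenced after poly-A enrichment. Per the submitters' notes and file headers, the authors used STAR 2.7.3a with GRCm38.p6 as the genome, and featureCounts 2.0.3 without strand to assign read pairs to Ensembl 102 genes. The deposited table holds raw counts of all genes. The deposited tables of the authors' DESeq2 comparisons hold shrunken log2 fold changes, p-values and a mean signal (counts divided by size factors, averaged over libraries); only their gene symbols were used.

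For testing, edgeR 4.0.16 (R 4.3.3) was used. The filterByExpr filter (minimum count 10, minimum total 15) retained 14851 of 34376 genes with a count, libraries were scaled by TMM, and all 9 libraries entered 1 quasi-likelihood fit with group as the only term, so the 2 Unloading libraries shared the estimate of the spread. P-values of the two-sided F-test were adjusted by Benjamini and Hochberg over all tested genes of a comparison, with a threshold of 0.05. Levels were CPM, divided by the summed exon length where genes are compared. Promoter windows came from RefSeq (GRCm38.p6), and gene positions and overlaps from the GRCm38 annotation.

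The members and lists were chosen with earlier results of these data known. All members are described. Values by library are given for the 8 higher and 4 lower members with the largest change in Reloading against Unloading, for up to 4 in each direction in the other comparisons, for Itga7, Itgb1, Itgb1bp2, Tln2, Vcl and Ilk, and for Tln1, which was added after its values were seen. Of the other lists, up to 3 of the highest and 3 of the lowest in Reloading against Unloading are named (1 gene that this rule names is not reported here), and those named in Unloading against Control were added after their values were seen.

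Replicate numbers in the titles and in the sample descriptions differ. Deviations from the group means gave r from -0.20 to 0.08 over genes for pairs by title number. By description number the 3 Control and Reloading pairs gave 0.36, 0.14 and 0.16, and the pairs with an Unloading library 0.05, 0.08 and 0.02. Apart from the 0.36, these were no larger in size than -0.20, so they do not show a pairing. A block by description number was used as an alternative. The pair at 0.36 is Control 2 with Reloading 1, the 2 libraries with skin transcripts. Alternatives were DESeq2 1.42.0, RLE factors, library totals, no filter, a robust fit, only the groups compared, each library left out, the 2 libraries with skin transcripts left out, and both blocks. The procedure was tested on simulated data.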

Additional observations from a re-analysis of the deposited data

How the results depend on the processing

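Over 18 alternative settings, 972 values were followed for members called in a comparison and for Itga7, Itgb1, Itgb1bp2, Tln2, Vcl and Ilk. Of these 907 kept their direction and their side of the threshold, 49 lost and 3 gained a call, and 13 changed sign. Over all 34 members the alternatives added 14 calls, 9 of them with scaling by library totals. All 16 rises in Reloading against Unloading were called under every setting. Scaling by library totals lowered the number of members called lower to 2 in Reloading against Unloading and 1 in Reloading against Control, and turned Tln2 to 0.046 and 0.074 in these comparisons, Itgav and Tns1 to 0.038 and 0.0072 in the second, and Itgb1 in Unloading against Control to -0.0038. Without the libraries with skin transcripts this Itgb1 value was -0.0028. In Unloading against Control, testing without a filter on low counts gave 2 members called (1 lower) and 11 integrin ligands called in place of 5, while a robust fit and DESeq2 gave 3 ligands each. Replicate numbers were also used as a block, although neither set is known to pair the libraries. By title number, 2 members were called in Unloading against Control (1 lower) and 2 were called lower in Reloading against Control. By description number, 2 members were called higher in Unloading against Control (Itga7, and Lims1 at 0.29). In Reloading against Control Tln2 then joined the calls (-0.17) and no other call changed. Under both blocks Lims2 lost its call in Reloading against Unloading (-0.38 and -0.35). Leaving out each library in turn, members called lower in Reloading against Unloading ranged from 2 to 4, members called in Unloading against Control from 1 to 3 (higher 0 to 1, lower 1 to 2), other focal adhesion genes there from 1 to 9 and ligands from 0 to 6, and members called lower in Reloading against Control from 2 to 4; without Unloading 1 only Itgb1bp2 was called in Unloading against Control, with Itga7 at 0.40 (adjusted p = 0.0841, edgeR). Among values that were not called, these changed sign: Itgb1 (-0.018 to 0.044) and Tln2 (-0.021 to 0.091) in Unloading against Control, and Ilk there (-0.25 to 0.71) and in Reloading against Unloading (-0.15 to 0.81). In Reloading against Control the call of Itgav was lost without Control 2, Control 4, Reloading 1 or Reloading 3 (-0.20 to -0.18), and that of Tns1 without Control 3, Control 4 or any 1 of the Reloading libraries (-0.26 to -0.14). The cause of these shifts was not tested. With 2 Unloading libraries and few read pairs for Itga2, Itga10, Itgb8 and Ilk, changes of the size of the Itga7 increase were not detectable in those genes.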

Other observations

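Integrins of leukocytes and platelets, which are not among the 34 genes, were few in number of read pairs. Of 8 listed, 6 were tested. Itgb2, the beta chain of the leukocyte integrins, was at 1.97 ± 0.14 CPM in Unloading (SD, n = 2) and 3.78 ± 0.70 in Reloading (SD, n = 3), and it was called higher (0.94 ± 0.25 on the log2 scale, adjusted p = 0.00944, edgeR). Itgam, its partner on macrophages and other myeloid cells, went from 0.791 ± 0.27 to 2.24 ± 0.22 CPM, by 1.46 ± 0.31 (adjusted p = 0.0018, edgeR). Itgal (0.90), Itgax (1.36), Itgb7 (0.33) and the platelet subunit Itga2b (0.68) did not pass in the same comparison. Itgax passed the filter on low counts only through Reloading libraries, so its value is not independent of the filter. In Unloading against Control the values ran from -1.01 for Itgal (adjusted p = 0.128, edgeR) to 0.0067 for Itga2b, without a call. Itgad and Itgae did not pass the filter on low counts. Itgb6, listed here as an epithelial subunit, was measured at 39.2 ± 2.30 CPM in Control (SD, n = 4), 33.9 ± 4.07 in Unloading (SD, n = 2) and 47.6 ± 4.65 in Reloading (SD, n = 3). Of the Control libraries only Control 2 held skin transcripts, and the cell source of Itgb6 was not tested. Itgb6 was called higher in Reloading against Unloading (0.48 ± 0.10, adjusted p = 0.0019, edgeR) and against Control (0.28 ± 0.09, adjusted p = 0.0159, edgeR).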
